A study of Mus musculus with 15 samples.

Results

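Messenger RNA of sorted T follicular helper (Tfh) cells was compared with that of sorted Th17 cells, in 5 libraries each, which are 10 of the 15 libraries of the series. The libraries were taken by their labels, and every gene that passed a filter on low counts was tested. All were mouse CD4 T cells of the genotype B6.Cg-Ifngtm3.1Lky-Il17atm1.1Lky, so Tfh, Th17 and the 5 further Th1 libraries all carried altered Ifng and Il17a alleles. Naive cells grew for 3.5 days on plates coated with antibodies to CD3 and CD28 before they were sorted by flow cytometry. The age of the mice was not given in the sources used here. The Tfh gate took cells with CXCR5 and without IL-17A. How Th17 cells were gated, and which cytokines either culture received, was likewise not given, so culture, fate and gate cannot be told apart. The cells were differentiated in culture on bound antibodies and not in lymph nodes, which limits them as a model of either cell in the animal. The labels do not say if the 5 libraries of a group are separate animals or cultures. The p-values thus reflect the spread among these samples alone, and that spread may be technical.

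Tfh cells carry CXCR5, which draws them towards B cell follicles, where they help B cells make antibody, and they depend on the repressor Bcl6. Th17 cells make IL-17 cytokines under the nuclear receptor RORγt and act on epithelia and neutrophils. Both can arise from naive cells exposed to TGF-β and IL-6, and the title of the series concerns the choice between these fates, TGF-β and c-Maf. Activated T cells also differ in growth: dividing effector cells take up glucose and build nucleotides and lipids, while resting or memory-like cells do less of this.

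Total counts were 4.87 to 12.2 M per Tfh library and 8.82 to 11.6 M per Th17 library (M for 1 followed by 6 zeros). Levels below are CPM, counts per M after scaling, given per library or as mean ± SD of the 5, and a fold change is the log2 of Tfh over Th17, so positive values are higher in Tfh cells. Tfh replicate 1, the shallowest library, stood apart. On the first principal component of the 10 libraries it lay at 96.8, while the 4 others of its group lay at 16.5 to 21.6 and the Th17 libraries at -37.1 to -32.1. Counts of members called in the gene lists below are also given without it. Libraries of both groups also differed in their trend with GC content. The Spearman correlation of each gene's deviation from its group mean with GC content was -0.51 in Th17 replicate 1 and 0.70 in Th17 replicate 4. In Tfh libraries it ran from -0.45 to 0.57. The defining B cell genes Ms4a1 and Pax5 had no count in any of the 10 libraries, and no gene of the B cell, erythroid, platelet, mast cell or stromal lists passed the filter on low counts. Cd79a, of the B cell list, had 54 counts in Tfh and 19 in Th17 libraries. Summed myeloid markers lay at 3.18 to 4.94 CPM in Tfh and 2.04 to 6.08 CPM in Th17 libraries. Trdc, the constant region of the gamma-delta T cell receptor and the 1 gene of that list tested, was called higher in Tfh cells, at 6.57 to 20.3 CPM in Tfh and 4.503 to 8.29 CPM in Th17 libraries. Bst2 was the 1 of 3 dendritic cell genes tested that was called, and was lower in Tfh cells, with 1097 counts in Tfh and 2060 in Th17 libraries, while Siglech and Clec9a of that list had 0 counts in both. The part of such cells in the results was not tested. Of 7 CD4 T cell genes, 4 were higher in Tfh cells, beside 6.8% of all genes, and 0 lower. All 7 summed to 5689 to 7100 CPM in Tfh and 4895 to 5503 CPM in Th17 libraries. Cd4 itself overlapped, at 509 to 591 CPM in Tfh and 455 to 652 CPM in Th17 libraries. In bulk samples, fewer cells of a type and less RNA per cell cannot be told apart.

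The markers were checked first. Cxcr5 was at 156, 167, 159, 168 and 192 CPM in Tfh replicates 1 to 5 and 31.96, 41.2, 36.6, 44.2 and 40.9 CPM in Th17 replicates 1 to 5, and Il17a at 4.83, 13.98, 20.3, 18.8 and 17.3 CPM in Tfh replicates 1 to 5 and 236, 189, 216, 254 and 229.9 CPM in Th17 replicates 1 to 5. Both genes differed in the direction the Tfh gate sets, which is no finding, since the sort acted on CXCR5 and IL-17A. Il17a is also 1 of the altered alleles. Tcf7 encodes TCF-1, a factor of Tfh, memory and stem-like T cells, and lies at chr11:52246527-52283383. It was at 1249, 1902, 1893, 2395 and 1763 CPM in Tfh replicates 1 to 5 and 522, 706, 626, 889 and 656 CPM in Th17 replicates 1 to 5. Every Tfh library was above every Th17 library, with a log2 fold change of 1.44 ± 0.22 (SE; edgeR adjusted p = 1.85e-04). Il2, the T cell growth factor gene (Entrez gene 16183, chr3:37120713-37125954), was at 0, 1.13, 0.163, 0.398 and 0 CPM in Tfh replicates 1 to 5 and 59.8, 38.5, 41.4, 34.8 and 36.7 CPM in Th17 replicates 1 to 5. Il2 reads were close to absent from Tfh libraries, with 14 counts in the 5 libraries against 2152 in the Th17 libraries, and the log2 fold change was -6.99 ± 0.55 (SE; edgeR adjusted p = 1.97e-07). Without Tfh replicate 2 it was -7.94.

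Across the 12591 genes tested, 2113 (16.8%) differed between Tfh and Th17 cells at an adjusted p under 0.05. Of these, 856 (6.8% of all tested) were higher and 1257 (9.98%) lower in Tfh cells, and 40.5% of the calls were thus higher. With a correction for GC content that share was 50.5%, or 1710 higher and 1675 lower. A change of at least 2-fold was found for 255 of the higher and 555 of the lower genes. In 1821 genes (14.5%) no Tfh library overlapped a Th17 library. Over all genes the median log2 fold change was -0.01. With Tfh replicate 1 left out, 838 genes were higher and 1230 lower. Protein-coding genes were called in 17.7% of 11429 cases and long non-coding RNA genes in 10.3% of 417. None of 10 genes of the mitochondrial chromosome was called by edgeR, DESeq2 or limma-voom, and 0 of them had an unadjusted p under 0.05. Genes lower in Tfh cells had a median longest transcript of 3011 bases, genes higher in Tfh cells 4121 bases and all genes 3386 bases, while median GC content was 48.6%, 49.5% and 49.6%.

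**Figure D1:**
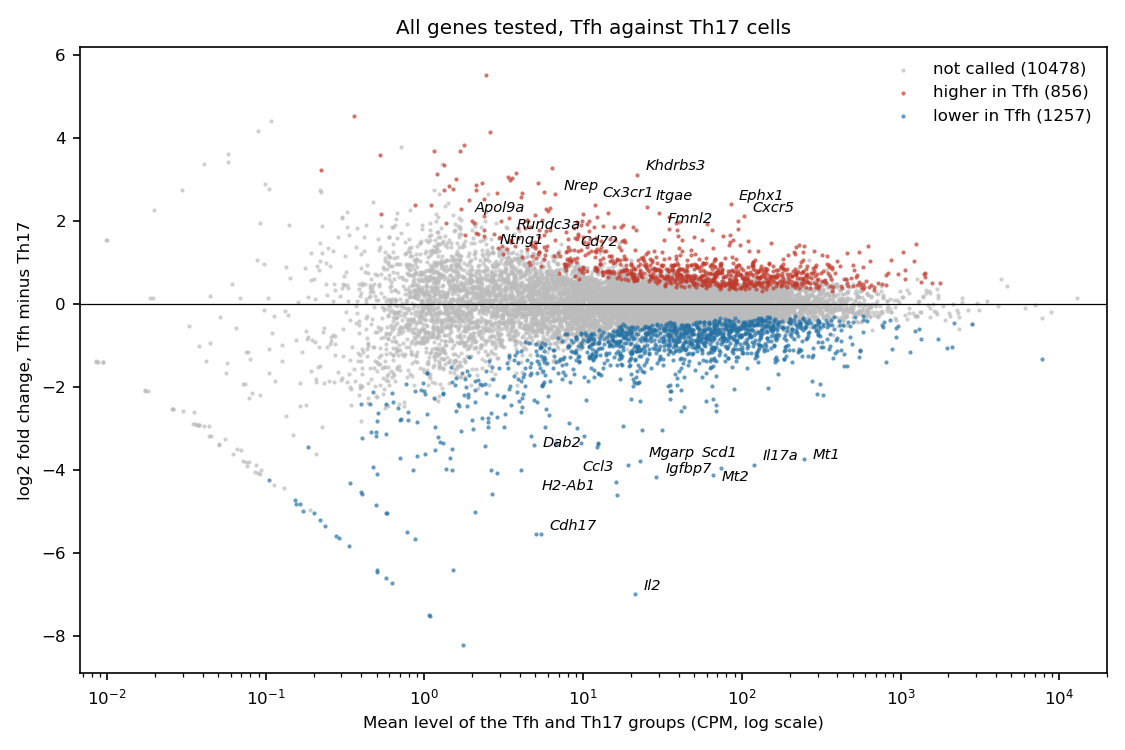
All 12591 genes tested, with the mean level of the Tfh and Th17 groups in CPM (x axis, log scale) against the log2 fold change of Tfh over Th17 cells (y axis). Red points are the 856 genes higher in Tfh, blue points the 1257 lower, most of the 12 most changed genes chosen in each direction are labelled, and the diagonal of points at the lower left holds genes with 0 counts in Tfh libraries, whose fold changes depend on the prior count. The 27 genes tested but at 0 in both groups are not drawn.

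The 12 highest and 12 lowest genes were taken among called genes without overlap between groups and with at least 10 CPM on average in the higher group. Names made of an identifier were left out, and genes outside this rule could differ more. Genes given with CPM levels in the lists below were named under the same conditions, so a lack of overlap was required of them. Beside the gated genes and Il2, those taken came from outside the usual marker lists. The 12 highest in Tfh cells included an RNA-binding protein, a chemokine receptor and an integrin chain, and the 12 lowest included a chemokine, an MHC class II chain, metallothioneins, a fatty acid desaturase and a secreted binding protein. Khdrbs3, which encodes an RNA-binding splicing regulator of the STAR family (Entrez gene 13992, chr15:68928392-69101794), was at 32.7, 47.2, 41.1, 31.8 and 43.1 CPM in Tfh replicates 1 to 5 and 3.16, 6.67, 4.67, 5.65 and 2.44 CPM in Th17 replicates 1 to 5. Its log2 fold change was 3.11 ± 0.32 (SE; edgeR adjusted p = 3.22e-06). Ephx1, microsomal epoxide hydrolase (Entrez gene 13849, chr1:180989556-181017569), was at 112, 177, 146, 160.2 and 117 CPM in Tfh replicates 1 to 5 and 20.3, 34.1, 31.3, 29.97 and 19.9 CPM in Th17 replicates 1 to 5, with 2.40 ± 0.27 (SE; edgeR adjusted p = 7.00e-06) on the log2 scale. Neither gene had an overlap between the groups. Nrep was at 11.4 ± 8.31 against 1.81 ± 0.468 CPM in Tfh against Th17 cells, Rundc3a at 23.5 ± 2.73 against 5.11 ± 1.12 CPM and Ntng1, a netrin-G axon guidance protein, at 16.3 ± 4.82 against 3.68 ± 1.63 CPM. Fmnl2, a formin that elongates actin filaments, was at 49.2 ± 13.9 against 10.7 ± 2.79 CPM, and Cd72, a C-type lectin known mainly from B cells, at 19.8 ± 5.53 against 4.64 ± 1.04 CPM. Apol9a was at 10.4 ± 5.17 against 2.05 ± 1.28 CPM. Its reads may be shared with its near-copy Apol9b, so its level is uncertain. Cx3cr1 and Itgae, also among the 12, are described with the receptors and adhesion molecules.

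The 12 lowest genes in Tfh cells encode proteins of unlike kinds. Ccl3, a chemokine also called MIP-1α (Entrez gene 20302, chr11:83647843-83649378), was at 0, 4.24, 3.02, 3.09 and 1.28 CPM in Tfh replicates 1 to 5 and 41.1, 31.01, 31.8, 35.2 and 41.7 CPM in Th17 replicates 1 to 5, a log2 fold change of -3.89 ± 0.36 (SE; edgeR adjusted p = 1.06e-06). H2-Ab1, the beta chain of an MHC class II molecule (Entrez gene 14961, chr17:34263227-34269418), was at 3.29, 1.27, 1.39, 2.29 and 0 CPM in Tfh replicates 1 to 5 and 21.3, 37.8, 27.5, 35.6 and 30.9 CPM in Th17 replicates 1 to 5, a log2 fold change of -4.30 ± 0.45 (SE; edgeR adjusted p = 4.05e-06). Every Th17 library lay above every Tfh library for both. The partner chain gene H2-Aa, named after its values were seen, had 2 counts in all Tfh and 0 in all Th17 libraries. Of 6 MHC class II genes tested, H2-Ab1 was the 1 called, beside 16.8% of all genes. Summed MHC class II markers lay at 22.6 to 47.0 CPM in Tfh and 50.5 to 74.2 CPM in Th17 libraries. These sums include H2-Ab1, and the other members went both ways. Cd74 had 480 counts in Tfh and 797 in Th17 libraries, and H2-DMa 926 and 670. Mgarp, a mitochondrial protein, was at 3.13 ± 1.99 against 42.8 ± 14.4 CPM, and Dab2, an endocytic adaptor, at 2.06 ± 1.17 against 22.5 ± 2.73 CPM. In Th1 libraries, which carry the same alleles, some of these genes stood near the Th17 level. Mean Th1 levels were 35.7 ± 9.91 CPM for H2-Ab1 and 36.04 ± 13.01 CPM for Mgarp, but 0.0170 ± 0.0381 CPM for Dab2. Of the genes highest in Tfh cells, Khdrbs3 was at 0.184 ± 0.178 CPM in Th1 libraries and Ephx1 at 30.98 ± 12.4 CPM.

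Metallothioneins, small cysteine-rich proteins that bind zinc and copper, were among the 12 lowest genes. Mt1 (Entrez gene 17748, chr8:94178883-94180327) was at 26.5, 29.1, 43.4, 42.1 and 31.1 CPM in Tfh replicates 1 to 5 and 368, 490.4, 392.3, 606 and 447 CPM in Th17 replicates 1 to 5, a log2 fold change of -3.74 ± 0.21 (SE; edgeR adjusted p = 2.93e-09). Mt2, its neighbour on the same chromosome (Entrez gene 17750, chr8:94172618-94173567), was at 6.38, 7.06, 8.496, 7.66 and 6.03 CPM in Tfh replicates 1 to 5 and 97.4, 129.7, 96.02, 180.3 and 123 CPM in Th17 replicates 1 to 5, a log2 fold change of -4.13 ± 0.22 (SE; edgeR adjusted p = 1.62e-09). Neither gene had a Tfh library near a Th17 library, and mean Th1 levels were 373 ± 103 CPM for Mt1 and 127 ± 31.4 CPM for Mt2. The 250 bases before the transcript start that the RefSeq promoter table uses for each gene are shown because these neighbours fell together, a choice made after their values were seen. They lie on the plus strand of GRCm38.p6, at chr8:94178839-94179088 for Mt1 and chr8:94172368-94172617 for Mt2. Because the Mt1 gene span begins at an earlier transcript start, 206 of the 250 bases of Mt1, with its match, lie inside that span, and 0 of those of Mt2 do. Capitals mark the core of the metal response element, searched as TGCACNC or TGCGCNC on both strands.
Mt1: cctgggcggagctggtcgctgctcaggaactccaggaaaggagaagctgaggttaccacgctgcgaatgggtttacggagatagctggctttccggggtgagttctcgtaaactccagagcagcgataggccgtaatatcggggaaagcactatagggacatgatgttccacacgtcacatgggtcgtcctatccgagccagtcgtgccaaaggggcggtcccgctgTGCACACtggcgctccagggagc
Mt2: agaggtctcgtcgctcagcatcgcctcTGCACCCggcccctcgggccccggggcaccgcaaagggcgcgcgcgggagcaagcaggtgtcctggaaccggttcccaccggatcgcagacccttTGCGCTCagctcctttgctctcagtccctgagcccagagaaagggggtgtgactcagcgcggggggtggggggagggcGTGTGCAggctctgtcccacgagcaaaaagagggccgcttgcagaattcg
Mt1 held 1 match and Mt2 3. The windows lie differently against the gene spans, so these counts cannot be set against each other. Of all 27025 promoters of this length 10.2% held the first form and 12.6% the second. Among the 9626 promoters of genes tested the shares were 10.4% and 22.3%. A match is a description of the letters only.

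Receptors for cytokines changed in both directions. Of 45 receptor genes tested, 11 were higher and 9 lower in Tfh cells (44.4% called, beside 16.8% of all genes). Their median log2 fold change was 0.15. Leaving out Tfh replicate 1 gave 12 and 8. The median was -0.05 without Th17 replicate 1. Acvr2a, a receptor for activins of the TGF-β superfamily (Entrez gene 11480, chr2:48814109-48903264), was at 107, 196, 137, 86.5 and 113 CPM in Tfh replicates 1 to 5 and 52.4, 57.6, 33.1, 26.3 and 33.4 CPM in Th17 replicates 1 to 5, a log2 fold change of 1.66 ± 0.30 (SE; edgeR adjusted p = 7.43e-04). Il6st encodes gp130, the chain through which IL-6 and its relatives signal (Entrez gene 16195, chr13:112464070-112506860). It was at 129, 158, 161, 170.0 and 197 CPM in Tfh replicates 1 to 5 and 59.9, 59.3, 54.9, 55.97 and 55.4 CPM in Th17 replicates 1 to 5, a log2 fold change of 1.51 ± 0.13 (SE; edgeR adjusted p = 3.01e-07), and its Th17 libraries lay close together. Il1r1, the signalling IL-1 receptor, was at 228 ± 43.9 CPM in Tfh and 124 ± 3.07 CPM in Th17 cells (SD, n = 5), 0.88 on the log2 scale. The other 8 members called higher were Ifnar2, Il17ra, Igf1r, Ifnar1, Il27ra, Ifngr2, Bmpr2 and Tgfbr2, with log2 fold changes from 0.45 to 0.87. The receptors of IL-23 and IL-12 were lower. Il23r, the IL-23 receptor chain of Th17 cells (Entrez gene 209590, chr6:67422932-67491855), was at 12.2, 16.4, 15.2, 8.86 and 14.7 CPM in Tfh replicates 1 to 5 and 71.1, 87.1, 53.96, 35.6 and 41.9 CPM in Th17 replicates 1 to 5, a log2 fold change of -2.10 ± 0.32 (SE; edgeR adjusted p = 1.66e-04). Il12rb2, the IL-12 receptor chain that Th1 cells carry (Entrez gene 16162, chr6:67285986-67376293), was at 6.57, 26.7, 12.9, 13.9 and 12.4 CPM in Tfh replicates 1 to 5 and 48.8, 73.2, 50.2, 49.5 and 59.3 CPM in Th17 replicates 1 to 5, a log2 fold change of -1.95 ± 0.24 (SE; edgeR adjusted p = 1.61e-05). In Th1 libraries the same gene was at 1649 ± 106 CPM. Il2ra encodes CD25, the high-affinity IL-2 receptor chain, and was at 1391 ± 67.6 CPM in Tfh and 2857 ± 203 CPM in Th17 cells, -1.04 on the log2 scale. The other 5 members called lower were Il13ra1, Il10ra, Tgfbr3, Il12rb1 and Il4ra, with log2 fold changes from -2.42 to -0.57. Il1r2, the decoy IL-1 receptor, had 1 count in all Tfh libraries and 44 in Th17 libraries, too few for a fold change.

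Most of the TNF family members called were lower in Tfh cells. Of 35 ligands and receptors tested, 12 were lower and 4 higher (45.7% called, beside 16.8% of all genes). The median log2 fold change was -0.54, or -0.48 with genes at 0 counts set to their bound. Leaving out Tfh replicate 1 gave 10 and 3. Tnfrsf9 encodes 4-1BB, a co-stimulatory receptor of activated T cells (Entrez gene 21942, chr4:150920155-150946104). It was at 27.1, 26.8, 20.7, 17.6 and 18.2 CPM in Tfh replicates 1 to 5 and 109, 133, 107, 96.7 and 97.5 CPM in Th17 replicates 1 to 5, a log2 fold change of -2.31 ± 0.15 (SE; edgeR adjusted p = 1.19e-08). Ngfr, the p75 neurotrophin receptor (Entrez gene 18053, chr11:95568818-95587698), was at 3.29, 0.565, 1.96, 2.39 and 1.78 CPM in Tfh replicates 1 to 5 and 11.6, 4.55, 17.8, 34.4 and 22.5 CPM in Th17 replicates 1 to 5, a log2 fold change of -3.20 ± 0.48 (SE; edgeR adjusted p = 1.41e-04). Th17 libraries varied for Ngfr, and the lowest of them was above the highest Tfh library. In Th1 libraries Ngfr was at 0.0085 ± 0.0190 CPM and Il17a at 0.0595 ± 0.0829 CPM, so both were highest in Th17 and near 0 in Th1 libraries. Whether reads from the altered Il17a allele contribute to Ngfr was not tested. The Ngfr difference thus cannot be told apart from the gate on IL-17A. Lta, lymphotoxin alpha, was at 57.8 ± 15.6 CPM in Tfh and 235 ± 47.7 CPM in Th17 cells, -2.03 on the log2 scale. The other 8 members called lower were Fasl, Cd40lg, Tnfsf11, Tnf, Tnfrsf4, Tnfrsf8, Tnfsf4 and Tnfrsf22, with log2 fold changes from -1.92 to -0.66. Among these, Cd40lg encodes CD40 ligand, through which T cells activate B cells. Tnfrsf11a, which encodes RANK, had 0 counts in Tfh and 29 in Th17 libraries. Cd27, a receptor of naive and memory T cells (Entrez gene 21940, chr6:125232620-125237136), went the other way, with 218, 266, 267, 312 and 281 CPM in Tfh replicates 1 to 5 and 77.1, 113, 124, 158 and 129 CPM in Th17 replicates 1 to 5 and a log2 fold change of 1.16 ± 0.22 (SE; edgeR adjusted p = 0.00114). Tnfsf10 (TRAIL), at 13.4 ± 2.095 against 4.48 ± 2.296 CPM in Tfh against Th17 cells, and Tnfrsf14 (HVEM), at 41.7 ± 4.78 against 21.7 ± 7.702 CPM, were also higher, as was Cd40.

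The list of co-stimulatory and co-inhibitory receptors, which also holds other surface proteins such as Ly6a and Ly6c1, split nearly evenly. Of 42 tested, 8 were higher and 9 lower in Tfh cells (40.5% called, beside 16.8% of all genes). The median was 0.05, and the counts were 7 and 8 without Tfh replicate 1. Izumo1r encodes folate receptor 4, a surface marker used for regulatory and anergic T cells (Entrez gene 64931, chr9:14885814-14903951). It was at 76.2, 90.97, 75.2, 85.99 and 45.3 CPM in Tfh replicates 1 to 5 and 16.98, 25.6, 20.8, 31.3 and 27.6 CPM in Th17 replicates 1 to 5, a log2 fold change of 1.61 ± 0.29 (SE; edgeR adjusted p = 7.07e-04). Cd96, a nectin-family receptor, was at 146, 161, 217, 162 and 217 CPM in Tfh replicates 1 to 5 and 85.9, 112, 103, 90.9 and 105 CPM in Th17 replicates 1 to 5, a log2 fold change of 0.86 ± 0.14 (SE; edgeR adjusted p = 3.72e-04). For both genes every Tfh library exceeded every Th17 library. Lag3, an inhibitory receptor for MHC class II, was at 477 ± 105 CPM in Tfh and 214 ± 78.2 CPM in Th17 cells (1.15 on the log2 scale). The other 5 members called higher were Cd5, Vsir, Cd101, Tigit and Cd80, with log2 fold changes from 0.53 to 0.90. Tigit, Vsir (VISTA) and Cd5 are inhibitory, and Cd80 is a ligand of CD28 and CTLA-4. Lower in Tfh cells was Cd24a, a small glycosylated surface protein (Entrez gene 12484, chr10:43579169-43584265), at 79.8, 119, 113, 86.2 and 125 CPM in Tfh replicates 1 to 5 and 366, 297, 241, 196 and 223 CPM in Th17 replicates 1 to 5, a log2 fold change of -1.34 ± 0.28 (SE; edgeR adjusted p = 0.00254). Ly6a (Sca-1) was at 568 ± 61.6 against 1207 ± 195 CPM in Tfh against Th17 cells and Cd200 at 93.8 ± 13.8 against 192 ± 34.2 CPM. The other 6 members called lower were Cd226, Crtam, Ly6c1, Ctla4, Ly6e and Cd47, with log2 fold changes from -3.06 to -0.56. They include the inhibitory receptor gene Ctla4 and the activating receptor genes Cd226 and Crtam.

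G protein-coupled receptors, which steer migration, also changed in both directions. Of 54 tested, 11 were higher and 10 lower in Tfh cells (38.9% called, beside 16.8% of all genes). The median was -0.23, and the counts were 11 and 11 without Tfh replicate 1. The gated Cxcr5 is among the higher genes. Cx3cr1, the fractalkine receptor (Entrez gene 13051, chr9:120048683-120068296), was at 20.5, 13.4, 22.5, 15.1 and 27.3 CPM in Tfh replicates 1 to 5 and 5.62, 0.953, 3.82, 4.24 and 4.44 CPM in Th17 replicates 1 to 5, a log2 fold change of 2.37 ± 0.42 (SE; edgeR adjusted p = 6.51e-04). Gpr83, an orphan-type receptor of regulatory T cells (Entrez gene 14608, chr9:14859880-14870789), was at 18.2, 17.5, 18.8, 17.02 and 7.61 CPM in Tfh replicates 1 to 5 and 2.11, 4.87, 3.99, 5.75 and 3.14 CPM in Th17 replicates 1 to 5, a log2 fold change of 1.99 ± 0.54 (SE; edgeR adjusted p = 0.0162). Its Tfh replicate 5 was far below the other 4 and still above the Th17 libraries. The other 8 members called higher were S1pr1, Gpr146, Gpr15, Gpr174, Lpar6, Cnr2, Ccr8 and Hrh2, with log2 fold changes from 0.44 to 2.98. S1pr1 is the receptor by which T cells leave lymph nodes, and Ccr8 and Gpr15 guide cells to skin and gut. Gpr183, or EBI2, senses oxysterols and draws lymphocytes to the outer edge of follicles (Entrez gene 321019, chr14:121952331-121965193). It was at 31.3, 63.7, 59.8, 57.7 and 56.9 CPM in Tfh replicates 1 to 5 and 98.5, 147, 129, 133 and 147 CPM in Th17 replicates 1 to 5, a log2 fold change of -1.28 ± 0.17 (SE; edgeR adjusted p = 3.62e-05). Cysltr1, a receptor for cysteinyl leukotrienes (Entrez gene 58861, chrX:106576509-106603679), was at 15.5, 30.2, 20.1, 16.7 and 15.02 CPM in Tfh replicates 1 to 5 and 168, 137, 101, 76.8 and 105 CPM in Th17 replicates 1 to 5, a log2 fold change of -2.59 ± 0.29 (SE; edgeR adjusted p = 7.44e-06). The related Cysltr2 was at 4.11 ± 1.87 against 11.4 ± 4.89 CPM. Both cysteinyl leukotriene receptors were thus lower in Tfh cells. Among the other members called lower were Ccr3, Adora2b, Gpr65, Ltb4r1, Cxcr4 and Ccr4, with log2 fold changes from -3.44 to -0.62. Ltb4r1 encodes a further leukotriene receptor.

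Adhesion molecules were called in 17 of 48 cases (35.4%, beside 16.8% of all genes). In Tfh cells 7 were higher and 10 lower, the median was 0.13, and the counts without Tfh replicate 1 were 8 and 10. Integrin alpha chains stood on both sides. Itgae encodes CD103, which with integrin beta 7 binds E-cadherin on epithelia (Entrez gene 16407, chr11:73090505-73147449). It was at 44.5, 30.2, 43.6, 40.2 and 53.4 CPM in Tfh replicates 1 to 5 and 8.31, 7.73, 7.48, 7.35 and 10.9 CPM in Th17 replicates 1 to 5, a log2 fold change of 2.34 ± 0.23 (SE; edgeR adjusted p = 1.66e-06). Itga3, a chain of a laminin receptor (Entrez gene 16400, chr11:95044475-95076844), was at 19.5, 24.9, 24.6, 31.9 and 26.5 CPM in Tfh replicates 1 to 5 and 64.5, 73.6, 71.7, 124 and 97.9 CPM in Th17 replicates 1 to 5, a log2 fold change of -1.76 ± 0.22 (SE; edgeR adjusted p = 2.04e-05). Itga7, a chain of another laminin receptor (Entrez gene 16404, chr10:128933421-128958286), was at 0.773, 1.41, 0.817, 1.89 and 0.988 CPM in Tfh replicates 1 to 5 and 7.96, 11.2, 9.52, 17.4 and 15.2 CPM in Th17 replicates 1 to 5, a log2 fold change of -3.36 ± 0.34 (SE; edgeR adjusted p = 2.99e-06). Itgae was thus higher in Tfh cells and Itga3 and Itga7 were lower, with no overlap between groups. Itga6, a further chain of laminin receptors, was also called higher, with groups that overlapped. Cdh17, an intestinal cadherin, had 9 counts in the 5 Tfh libraries and 536 in Th17 libraries, a log2 fold change of -5.56 ± 0.72 (SE; edgeR adjusted p = 3.17e-05), or -8.10 without Tfh replicate 2. Tspan32 was at 54.999 ± 6.31 against 31.9 ± 7.44 CPM in Tfh against Th17 cells and Cd99l2 at 56.8 ± 6.16 against 33.02 ± 5.602 CPM. The other 4 members called higher were Itgb2, Pecam1, Itga6 and Cd37, with log2 fold changes from 0.36 to 0.92. The other 7 members called lower were Jam2, Tspan4, Thy1, Cd44, Itgb1, Cd81 and Cd82, with log2 fold changes from -2.98 to -0.43. Cd44 and Itgb1 are markers of activated and memory T cells.

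Guidance, Notch and Wnt genes gave few calls. Of 36 tested, none passed as higher by edgeR, with 3 at an unadjusted p under 0.05, 3 by DESeq2 and 1 by limma-voom, and 5 were lower, with a median of 0.01 whose sign changed in 10 of 20 alternatives. This is 13.9% of the members, beside 16.8% of all genes. The netrin-G gene Ntng1, called higher and described above, is not a member of that list. Without Tfh replicate 1 there were 2 higher and 6 lower. Sema7a, a membrane-anchored semaphorin that acts through integrins (Entrez gene 20361, chr9:57939596-57962865), was at 14.9, 15.8, 15.2, 24.4 and 17.4 CPM in Tfh replicates 1 to 5 and 56.3, 44.6, 58.2, 76.2 and 67.2 CPM in Th17 replicates 1 to 5, a log2 fold change of -1.78 ± 0.22 (SE; edgeR adjusted p = 1.86e-05). The others were Efna5, Fzd7 and Sema4f, with log2 fold changes from -2.16 to -0.43, and Efna1, which had 1 count in Tfh and 76 in Th17 libraries.

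Surface enzymes and channels were called in 11 of 42 cases (26.2%, beside 16.8% of all genes), 7 higher and 4 lower. The median was 0.13, and the counts were 7 and 4 without Tfh replicate 1. Both enzymes that turn extracellular ATP into adenosine were higher in Tfh cells: Entpd1 (CD39) at 11.6 ± 2.15 CPM in Tfh and 4.45 ± 1.52 CPM in Th17 cells, 1.37 on the log2 scale, and Nt5e (CD73). The other 4 members called higher were Atp1b3, Trpv2, Nt5e and P2rx7, with log2 fold changes from 0.30 to 1.07. P2rx7 is an ATP-gated channel that can trigger death or shedding of surface proteins in T cells. Inhibitors of matrix metalloproteinases went in opposite directions. Timp1 (Entrez gene 21857, chrX:20870166-20874737) was at 87.6, 121, 106, 140.2 and 85.4 CPM in Tfh replicates 1 to 5 and 512, 440.4, 423, 543 and 534 CPM in Th17 replicates 1 to 5, a log2 fold change of -2.18 ± 0.18 (SE; edgeR adjusted p = 2.19e-07). Timp2 (Entrez gene 21858, chr11:118301061-118355411) was at 439.6, 332, 439, 504 and 535 CPM in Tfh replicates 1 to 5 and 189, 209, 223, 276 and 269 CPM in Th17 replicates 1 to 5, a log2 fold change of 0.95 ± 0.16 (SE; edgeR adjusted p = 4.68e-04). Neither pair of groups overlapped. Adam12, a membrane metalloproteinase, was at 54.5 ± 12.5 against 30.8 ± 1.95 CPM in Tfh against Th17 cells. Kcnk5, a potassium leak channel, was at 8.75 ± 0.813 against 14.6 ± 1.17 CPM. The other 2 members called lower were Enpp4 and Clcn3, with log2 fold changes from -0.91 to -0.86.

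Secreted growth factors, galectins, annexins and matrix proteins were called lower more often than higher. Of 35 tested, 11 were lower and 3 higher (40.0% called, beside 16.8% of all genes). The median was -0.52, and the counts were 10 and 2 without Tfh replicate 1. Igfbp7, a secreted binding protein of insulin-like growth factors (Entrez gene 29817, chr5:77349240-77408045), was at 3.09, 2.12, 0.817, 3.58 and 5.43 CPM in Tfh replicates 1 to 5 and 51.9, 47.8, 57.9, 62.9 and 50.4 CPM in Th17 replicates 1 to 5, a log2 fold change of -4.17 ± 0.33 (SE; edgeR adjusted p = 1.97e-07). Spp1, osteopontin (Entrez gene 20750, chr5:104435111-104441053), was at 117, 147, 133, 109 and 141 CPM in Tfh replicates 1 to 5 and 613, 553, 505, 373 and 434 CPM in Th17 replicates 1 to 5, a log2 fold change of -1.94 ± 0.16 (SE; edgeR adjusted p = 3.61e-07). Hbegf, a ligand of the EGF receptor, was at 3.48 ± 1.21 CPM in Tfh and 17.3 ± 2.505 CPM in Th17 cells (-2.33 on the log2 scale). For these 3 genes, as the rule required, the groups did not overlap. The other 8 members called lower were Vegfa, Lgals3, Anxa2, Lrrc32, S100a4, Mif, Osm and Anxa6, with log2 fold changes from -1.91 to -0.52. Vegfa is a vascular growth factor, and Lrrc32 encodes GARP, which holds latent TGF-β at the cell surface. Igfbp4 was higher, at 1749 ± 384 CPM in Tfh and 1067 ± 166 CPM in Th17 cells, 0.71 on the log2 scale, as were Lgals9 and Thbs1. The 2 binding proteins of insulin-like growth factors named here thus went in opposite directions.

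**Figure D2:**
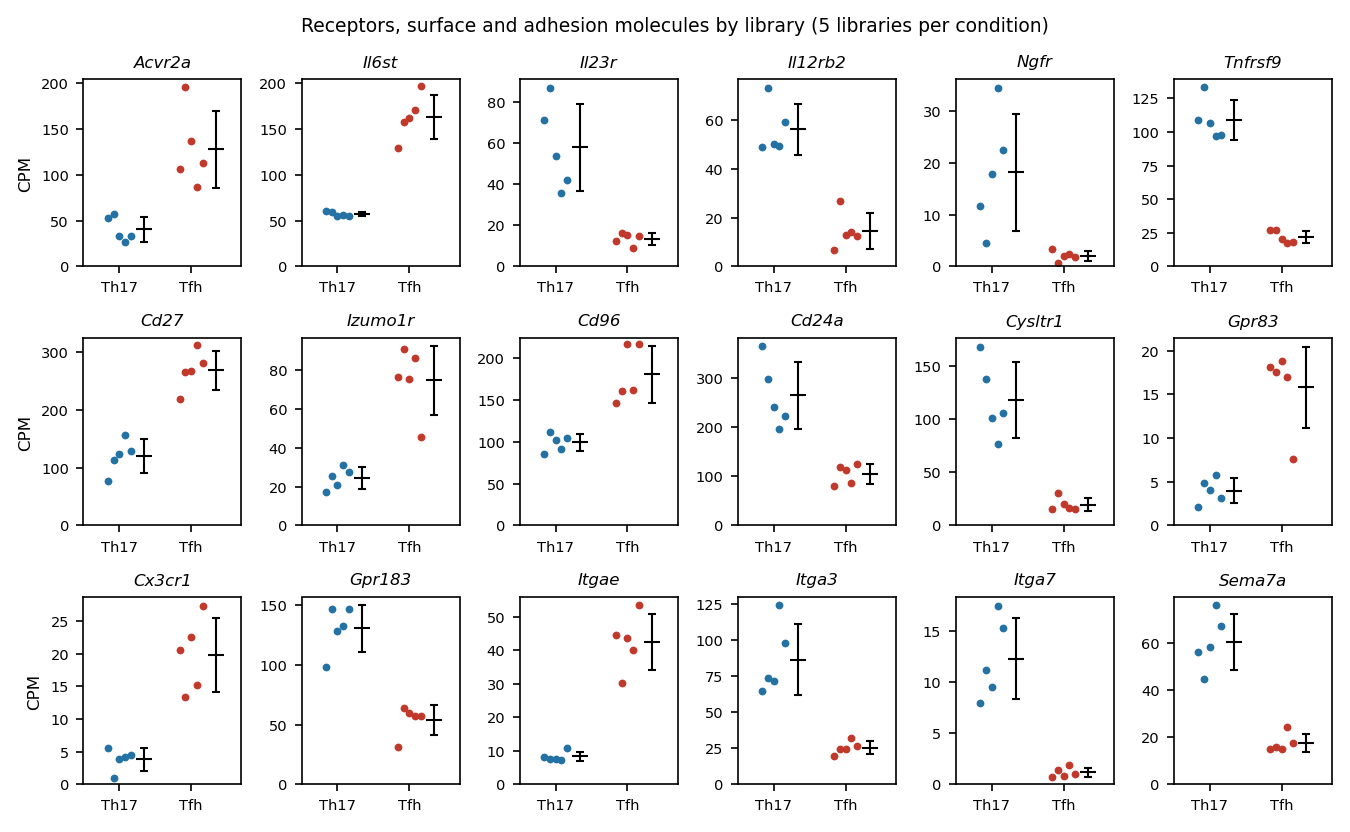
Levels in CPM (y axis, linear from 0) of 18 receptors, surface and adhesion molecules in each Th17 (blue) and Tfh (red) library, in replicate order from left to right, with the mean ± SD of 5 libraries in black. In all 18 panels the groups do not overlap, as the rule that named these genes required. The low Tfh point of Gpr83 and of Izumo1r is replicate 5.

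Transcription factors of the KLF, FOX, TCF, TOX and SOX families were mostly higher in Tfh cells where they were called. Of 30 tested, 10 were higher and 3 lower in Tfh cells (43.3% called, beside 16.8% of all genes). The median was 0.37, and the counts without Tfh replicate 1 were 10 and 3. Sox4, a factor of progenitor cells that is induced by TGF-β in T cells (Entrez gene 20677, chr13:28948919-28953699), was at 197, 92.8, 137, 147 and 186 CPM in Tfh replicates 1 to 5 and 29.9, 19.1, 43.2, 47.5 and 49.8 CPM in Th17 replicates 1 to 5, a log2 fold change of 2.001 ± 0.30 (SE; edgeR adjusted p = 1.22e-04). Klf2 maintains quiescence and drives homing receptors of naive T cells (Entrez gene 16598, chr8:72319062-72321654). It was at 96.3, 99.7, 114, 99.8 and 66.4 CPM in Tfh replicates 1 to 5 and 22.8, 31.96, 24.1, 22.99 and 23.1 CPM in Th17 replicates 1 to 5, a log2 fold change of 1.93 ± 0.22 (SE; edgeR adjusted p = 9.57e-06). Tox2, an HMG-box factor known in Tfh cells (Entrez gene 269389, chr2:163203058-163324172), was at 40.8, 37.1, 65.03, 102 and 52.96 CPM in Tfh replicates 1 to 5 and 13.8, 11.9, 18.01, 29.02 and 22.9 CPM in Th17 replicates 1 to 5, a log2 fold change of 1.64 ± 0.30 (SE; edgeR adjusted p = 9.79e-04). None of these factors overlapped between groups, as the rule required. The other 7 members called higher were Foxo1, Foxp1, Klf10, Foxn3, Klf9, Tox and Tcf7, with log2 fold changes from 0.52 to 1.44. Foxo1 and Foxp1 hold T cells in a resting state. Foxm1, which drives genes of mitosis, was at 60.9 ± 22.3 CPM in Tfh and 139 ± 38.3 CPM in Th17 cells, -1.19 on the log2 scale, and Klf6 at 69.6 ± 10.4 CPM in Tfh and 122 ± 23.4 CPM in Th17 cells. Sox5 was also lower.

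Factors with a basic helix-loop-helix were called in 7 of 35 cases, or 20.0% beside 16.8% of all genes, 4 higher and 3 lower, with a median of -0.01 whose sign changed in 14 of 20 alternatives, and with 5 and 2 without Tfh replicate 1. Bhlhe40, a repressor needed for cytokine production by effector T cells (Entrez gene 20893, chr6:108660629-108666925), was at 205, 166, 248, 265 and 263 CPM in Tfh replicates 1 to 5 and 606, 653, 609, 738 and 645 CPM in Th17 replicates 1 to 5, a log2 fold change of -1.50 ± 0.14 (SE; edgeR adjusted p = 8.68e-07). Myc, the driver of growth in activated T cells (Entrez gene 17869, chr15:61985341-61990361), was at 139.8, 156, 194, 208 and 205 CPM in Tfh replicates 1 to 5 and 364, 346, 366, 424 and 387 CPM in Th17 replicates 1 to 5, a log2 fold change of -1.06 ± 0.14 (SE; edgeR adjusted p = 5.29e-05). Mxd4, which competes with Myc for its partner Max, went the other way, at 49.3 ± 7.39 CPM in Tfh and 25.6 ± 4.204 CPM in Th17 cells (0.94 on the log2 scale). For the genes given with levels here the rule required groups without overlap. Ahr, the aryl hydrocarbon receptor, was at 657 ± 84.4 against 408 ± 55.3 CPM in Tfh against Th17 cells, and Tcf4, an E protein, at 59.4 ± 10.1 against 31.2 ± 3.56 CPM. Tcf12, another E protein, was also higher. The call of Npas2, a clock factor at 21.2 ± 3.49 against 31.4 ± 2.82 CPM, was lost in 10 of 20 alternatives, among them the one without Tfh replicate 1.

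Basic leucine zipper factors were evenly split, 7 higher and 7 lower of 33 tested (42.4% called, beside 16.8% of all genes). The median of 0.08 fell below 0 in 2 alternatives, and the counts were 6 and 8 without Tfh replicate 1. Maf, which encodes c-Maf (Entrez gene 17132, chr8:115703253-115706894), was at 2043, 1836, 1617, 1111 and 1542 CPM in Tfh replicates 1 to 5 and 1039, 952, 762, 580.3 and 656 CPM in Th17 replicates 1 to 5, a log2 fold change of 1.03 ± 0.20 (SE; edgeR adjusted p = 0.00125). Each Tfh library exceeded each Th17 library, and Th1 libraries were at 10.7 ± 2.75 CPM. Ddit3 (CHOP), a stress factor, was at 36.2 ± 5.15 against 20.2 ± 3.796 CPM in Tfh against Th17 cells and Fos at 19.6 ± 4.52 against 11.7 ± 2.26 CPM. The other 4 members called higher were Bach2, Nfe2l2, Dbp and Atf5, with log2 fold changes from 0.33 to 1.28. Bach2 represses effector genes in T cells. Nfil3, a factor tied to circadian and helper cell control (Entrez gene 18030, chr13:52967209-52982878), was at 16.8, 13.7, 16.7, 21.2 and 16.2 CPM in Tfh replicates 1 to 5 and 32.4, 44.98, 44.9, 47.6 and 48.1 CPM in Th17 replicates 1 to 5, a log2 fold change of -1.36 ± 0.18 (SE; edgeR adjusted p = 3.06e-05). Crem was at 107 ± 27.6 against 212 ± 61.4 CPM and Fosl2, an AP-1 factor, at 138 ± 27.7 against 234 ± 30.1 CPM, both lower in Tfh cells. The other 4 members called lower were Batf3, Atf3, Atf4 and Xbp1, with log2 fold changes from -3.72 to -0.53. Atf4 and Xbp1 serve amino acid and unfolded protein stress, and Ddit3, which Atf4 induces, stood on the other side. Of 23 nuclear receptors, 1 was higher and 2 were lower, with the same counts without Tfh replicate 1. Nr4a2, which T cell receptor signals induce, was at 11.8, 11.6, 9.48, 13.8 and 11.95 CPM in Tfh replicates 1 to 5 and 31.7, 35.7, 36.5, 44.3 and 35.5 CPM in Th17 replicates 1 to 5, a log2 fold change of -1.65 ± 0.16 (SE; edgeR adjusted p = 1.82e-06). Nr2c2 was at 38.6 ± 2.35 against 27.5 ± 1.94 CPM and lost its call in 9 of 20 alternatives. Pparg had 0 counts in Tfh and 33 in Th17 libraries. These 13.0% of members lie beside 16.8% of all genes.

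Of 86 other lymphocyte factors, 20 were higher and 9 lower in Tfh cells (33.7% called, beside 16.8% of all genes). The median was 0.18, and the counts were 22 and 8 without Tfh replicate 1. Ikzf3, which encodes Aiolos (Entrez gene 22780, chr11:98464610-98546031), was at 640.1, 936, 909, 945 and 1054 CPM in Tfh replicates 1 to 5 and 335, 383, 326, 319.6 and 348 CPM in Th17 replicates 1 to 5, a log2 fold change of 1.39 ± 0.13 (SE; edgeR adjusted p = 1.32e-06). Gata3, the Th2 factor that all T cells keep at a low level (Entrez gene 14462, chr2:9857078-9887953), was at 28.6, 23.9, 22.1, 25.7 and 21.8 CPM in Tfh replicates 1 to 5 and 7.14, 7.09, 5.61, 8.95 and 5.31 CPM in Th17 replicates 1 to 5, a log2 fold change of 1.84 ± 0.29 (SE; edgeR adjusted p = 2.16e-04). Both were higher in every Tfh library. Smad7, a feedback inhibitor of TGF-β signalling, was at 97.4 ± 15.9 CPM in Tfh and 49.4 ± 11.1 CPM in Th17 cells (0.98 on the log2 scale). The other 17 members called higher were Nfatc3, Irf9, Ets1, Smad1, Nfatc1, Tgif1, Etv3, Irf2, Bcl11b, Elf1, Egr2, Pou2af1, Zbtb20, Pou6f1, Myb, Bcl6 and Irf7, with log2 fold changes from 0.43 to 1.64. Bcl6 and Pou2af1 are known regulators of Tfh cells, and Irf7 and Irf9 belong to the interferon response. Not every gene tied to B cell help was higher. Cd40lg, through which T cells activate B cells, was lower, and S1pr1, by which they leave lymph nodes, was higher. Rbpj, the DNA-binding partner of Notch (Entrez gene 19664, chr5:53555779-53657445), was at 304, 289, 234, 212 and 292 CPM in Tfh replicates 1 to 5 and 697, 724, 581, 522 and 543 CPM in Th17 replicates 1 to 5, a log2 fold change of -1.20 ± 0.13 (SE; edgeR adjusted p = 6.72e-06). Zbtb32, a zinc finger repressor of the BTB family (Entrez gene 58206, chr7:30589680-30602819), was at 9.09, 3.39, 8.09, 15.8 and 15.2 CPM in Tfh replicates 1 to 5 and 22.6, 17.7, 29.3, 42.5 and 32.7 CPM in Th17 replicates 1 to 5, a log2 fold change of -1.47 ± 0.36 (SE; edgeR adjusted p = 0.00793). Irf5, an interferon regulatory factor, was at 6.34 ± 2.02 against 13.2 ± 2.66 CPM in Tfh against Th17 cells. The other 6 members called lower were Zeb2, Casz1, Runx3, Etv6, Runx2 and Stat5a, with log2 fold changes from -1.74 to -0.59. Runx2 and Runx3 were thus both lower.

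Signalling regulators that were called were mostly higher in Tfh cells. Of 76 tested, 23 were higher and 5 lower in Tfh cells (36.8% called, beside 16.8% of all genes). The median was 0.33 beside -0.01 over all genes, and the counts were 22 and 4 without Tfh replicate 1. Rgs10, which shortens signals from G protein-coupled receptors (Entrez gene 67865, chr7:128373621-128419506), was at 1259, 1370.3, 1608, 1529 and 1527 CPM in Tfh replicates 1 to 5 and 492, 652, 606, 677 and 675 CPM in Th17 replicates 1 to 5, a log2 fold change of 1.23 ± 0.13 (SE; edgeR adjusted p = 5.71e-06). Lax1, an adaptor that dampens antigen receptor signals (Entrez gene 240754, chr1:133679017-133693022), was at 148, 80.1, 87.4, 107 and 113 CPM in Tfh replicates 1 to 5 and 53.4, 35.8, 54.7, 58.1 and 49.3 CPM in Th17 replicates 1 to 5, a log2 fold change of 1.09 ± 0.19 (SE; edgeR adjusted p = 6.40e-04). Rasgrp4, an activator of Ras, was at 18.2 ± 3.15 CPM in Tfh and 6.05 ± 1.9001 CPM in Th17 cells (1.58 on the log2 scale). The other 20 members called higher were Sgk1, Ubash3b, Ptpn6, Rgs3, Rasal3, Plcg1, Prkcq, Rasgrp1, Socs5, Dgka, Dgkz, Sit1, Zap70, Pik3ip1, Fyn, Txk, Rasa3, Sh2d2a, Rasa1 and Ptpn13, with log2 fold changes from 0.51 to 2.52. This group holds both transmitters of the T cell receptor signal, such as Zap70, Fyn, Txk, Prkcq and Plcg1, and its brakes, such as Ptpn6, Dgka, Dgkz, Sit1, Ubash3b, Rasa1 and Rasal3. Cish, an inhibitor induced by STAT5 downstream of IL-2 (Entrez gene 12700, chr9:107296659-107302784), was at 73.3, 53.4, 66.4, 117 and 91.2 CPM in Tfh replicates 1 to 5 and 213, 191, 230.4, 381 and 283 CPM in Th17 replicates 1 to 5, a log2 fold change of -1.69 ± 0.28 (SE; edgeR adjusted p = 3.50e-04). Rgs16 was at 65.8 ± 7.48 against 121 ± 9.76 CPM in Tfh against Th17 cells. The other 3 members called lower were Rgs1, Themis and Socs2, with log2 fold changes from -1.13 to -0.63. Socs2 is a further inhibitor induced by STAT5, and Stat5a itself was among the lower factors.

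**Figure D3:**
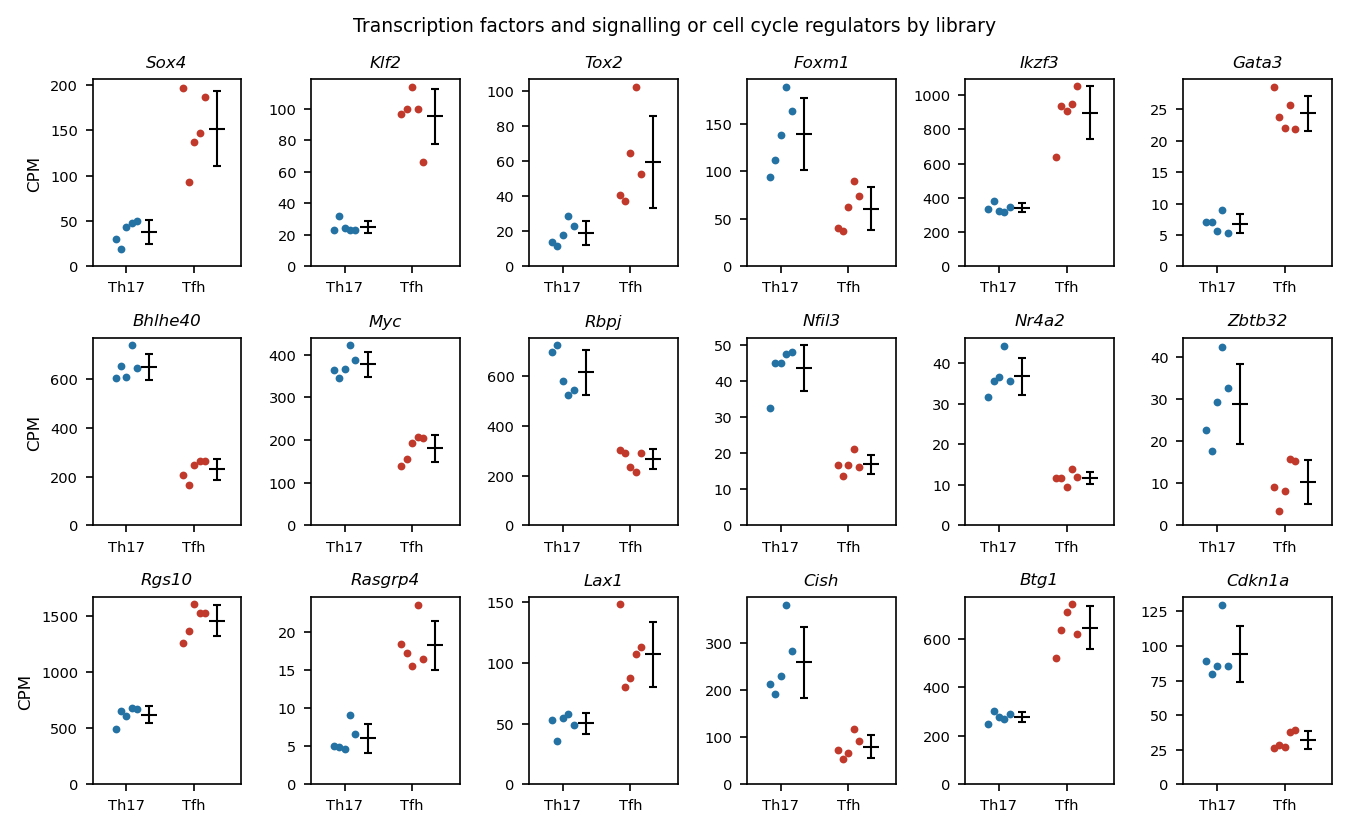
Levels in CPM (y axis, linear from 0) of 12 transcription factors and 6 regulators of signalling or the cell cycle in each Th17 (blue) and Tfh (red) library, with the mean ± SD of 5 libraries in black. In each of the 18 panels the Tfh libraries lie wholly above or wholly below the Th17 libraries, as the rule that named these genes required.

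Metabolic genes that were called were mostly lower in Tfh cells. Of 30 genes of glycolysis and the pentose phosphate pathway, 18 were lower and 1 higher (63.3% called, beside 16.8% of all genes). Their median log2 fold change was -0.78. The count was 18 lower without Tfh replicate 1. Hk2, hexokinase 2, traps glucose in the cell (Entrez gene 15277, chr6:82725025-82774454). It was at 17.01, 17.7, 12.7, 10.3 and 8.89 CPM in Tfh replicates 1 to 5 and 54.6, 52.6, 58.2, 59.8 and 59.7 CPM in Th17 replicates 1 to 5, a log2 fold change of -2.11 ± 0.18 (SE; edgeR adjusted p = 3.41e-07). The glucose transporter genes fell with it. Slc2a1 encodes GLUT1 (Entrez gene 20525, chr4:119108745-119137330) and was at 28.6, 47.9, 45.3, 61.5 and 39.02 CPM in Tfh replicates 1 to 5 and 107, 119, 128, 157 and 130.3 CPM in Th17 replicates 1 to 5, a log2 fold change of -1.53 ± 0.22 (SE; edgeR adjusted p = 1.06e-04). Slc2a3 encodes GLUT3 and was at 15.9 ± 5.38 CPM in Tfh and 61.8 ± 21.6 CPM in Th17 cells, -1.95 on the log2 scale. The other 15 members called lower were Slc16a3, Tpi1, Pgk1, Eno1, Gapdh, Aldoa, Slc16a1, Aldoc, Ldha, Pkm, Tkt, Pdk1, Pgd, Pfkl and Pfkp, with log2 fold changes from -1.41 to -0.46. They run from aldolase (Aldoa, Aldoc) through enolase (Eno1) and lactate dehydrogenase (Ldha) to the lactate carriers Slc16a1 and Slc16a3. Gapdh has many copies in the genome, which leaves its level uncertain. Eno2, the neuronal enolase, was the 1 higher gene and was no longer called without Tfh replicate 1.

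The citrate cycle gave fewer calls. Of 30 genes, 5 were lower and 1 higher, or 20.0% called beside 16.8% of all genes, with a median of -0.15. Without Tfh replicate 1, 3 were lower. Pdha1, of the complex that passes pyruvate into the cycle (Entrez gene 18597, chrX:160122219-160138430), was the higher one, at 154, 130.2, 153, 128 and 161 CPM in Tfh replicates 1 to 5 and 96.3, 93.7, 107, 101 and 107 CPM in Th17 replicates 1 to 5, a log2 fold change of 0.52 ± 0.11 (SE; edgeR adjusted p = 0.00227). Idh3a was at 111 ± 13.2 against 174 ± 12.9 CPM in Tfh against Th17 cells. Acly, which turns citrate into acetyl-CoA for lipid synthesis, was at 208 ± 11.8 against 301 ± 11.5 CPM, and the citrate carrier Slc25a1 at 64.8 ± 9.33 against 101 ± 19.7 CPM. Slc25a1 lost its call in 11 of 20 alternatives, among them the one without Tfh replicate 1. Fh1 and Cs were also lower.

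Serine, one-carbon and nucleotide synthesis held 20 lower genes and 0 higher ones among 33 tested by edgeR (0 also at an unadjusted p under 0.05, by DESeq2 and by limma-voom), 60.6% called beside 16.8% of all genes. The median was -0.61, and 20 were lower without Tfh replicate 1 as well. Rrm2, a subunit of the reductase that makes deoxynucleotides (Entrez gene 20135, chr12:24708254-24714146), was at 113, 127, 166, 179.9 and 219 CPM in Tfh replicates 1 to 5 and 463, 348, 372, 374 and 403 CPM in Th17 replicates 1 to 5, a log2 fold change of -1.28 ± 0.15 (SE; edgeR adjusted p = 1.49e-05). Shmt1, which moves carbon units from serine to folate (Entrez gene 20425, chr11:60788897-60811265), was at 6.96, 12.01, 12.4, 20.2 and 16.2 CPM in Tfh replicates 1 to 5 and 32.7, 28.5, 34.6, 34.1 and 34.4 CPM in Th17 replicates 1 to 5, a log2 fold change of -1.26 ± 0.22 (SE; edgeR adjusted p = 5.87e-04). Tyms, thymidylate synthase, was at 46.4 ± 7.004 CPM in Tfh and 109 ± 6.46 CPM in Th17 cells, -1.23 on the log2 scale, and a pseudogene copy, Tyms-ps, had 736 counts in the same libraries. Among the other members called lower were Tk1, Phgdh, Mthfd1l, Rrm1, Mthfd1, Cad, Prps1, Shmt2, Psat1, Ctps, Pfas, Mthfd2, Adsl, Paics, Umps and Atic, with log2 fold changes from -1.13 to -0.47. Serine synthesis (Phgdh, Psat1), folate enzymes (Mthfd1, Mthfd2, Mthfd1l, Shmt2), purine synthesis (Pfas, Paics, Adsl, Atic) and pyrimidine synthesis (Cad, Umps, Ctps) were all represented.

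Among 29 genes of amino acid transport, glutamine and polyamine metabolism, 8 were lower and 1 higher (31.0% called, beside 16.8% of all genes). The median was -0.25, and the counts were the same without Tfh replicate 1. Slc7a5, the light chain of the large neutral amino acid transporter (Entrez gene 20539, chr8:121881146-121907686), was at 45.4, 30.9, 39.1, 47.9 and 45.4 CPM in Tfh replicates 1 to 5 and 89.7, 61.6, 85.1, 129.8 and 89.5 CPM in Th17 replicates 1 to 5, a log2 fold change of -1.13 ± 0.21 (SE; edgeR adjusted p = 8.66e-04). Got1, the cytosolic aspartate aminotransferase, was at 106 ± 12.03 against 214 ± 17.6 CPM in Tfh against Th17 cells and Bcat1, which transfers nitrogen from branched-chain amino acids, at 44.9 ± 18.4 against 81.6 ± 8.18 CPM. Gls2, Asns, Slc7a1 and Got2 were the 4 others in range, from -2.45 to -0.39. Slc7a11, the cystine carrier, had 1 count in Tfh and 36 in Th17 libraries, and Slc1a4 was the higher gene.

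Lipid genes that were called were mostly lower in both lists. Of 31 genes of fatty acid synthesis and oxidation, 10 were lower and 1 higher (35.5% called, beside 16.8% of all genes). The median was -0.44, and the counts were 11 and 1 without Tfh replicate 1. Scd1, the desaturase that puts a double bond into saturated fatty acids (Entrez gene 20249, chr19:44394450-44407709), was at 10.1, 9.18, 7.597, 10.3 and 7.805 CPM in Tfh replicates 1 to 5 and 142, 162, 129.7, 127 and 131 CPM in Th17 replicates 1 to 5. Its log2 fold change of -3.95 ± 0.14 (SE; edgeR adjusted p = 1.31e-12) was a 15.5-fold lower level in Tfh cells. Fads2, a desaturase of polyunsaturated fatty acids (Entrez gene 56473, chr19:10062765-10101503), was at 30.4, 24.6, 35.8, 31.1 and 35.5 CPM in Tfh replicates 1 to 5 and 95.9, 94.4, 95.3, 137 and 109 CPM in Th17 replicates 1 to 5, a log2 fold change of -1.75 ± 0.15 (SE; edgeR adjusted p = 5.40e-07). Dgat1, which makes triglycerides, was at 68.7 ± 6.59 CPM in Tfh and 183 ± 26.6 CPM in Th17 cells, -1.41 on the log2 scale. The other 7 members called lower were Scd2, Acsl1, Acsl3, Acsl4, Acot7, Acadl and Acaca, with log2 fold changes from -1.11 to -0.56. Cpt1a, which brings fatty acids into mitochondria for oxidation, was the higher gene, with a log2 fold change of 0.66. Acadl, an enzyme of oxidation, was lower.

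The sterol list held the largest share of calls of the 23 lists. Of 27 genes tested, 17 were lower and 1 higher (66.7% called, beside 16.8% of all genes), with a median of -0.79. Without Tfh replicate 1 the counts were 18 and 1. The 250 bases before the transcript start in the RefSeq promoter table for Lss and Mvk are shown because these 2 genes fell furthest in that list among those the rule names. They lie on the plus strand of GRCm38.p6, at chr10:76531355-76531604 for Lss and chr5:114444019-114444268 for Mvk. The last 40 bases for Lss and the last 5 for Mvk lie inside the gene spans given below, which begin at an earlier transcript start. Capitals mark the CCAAT box, searched as CCAAT on both strands.
Lss: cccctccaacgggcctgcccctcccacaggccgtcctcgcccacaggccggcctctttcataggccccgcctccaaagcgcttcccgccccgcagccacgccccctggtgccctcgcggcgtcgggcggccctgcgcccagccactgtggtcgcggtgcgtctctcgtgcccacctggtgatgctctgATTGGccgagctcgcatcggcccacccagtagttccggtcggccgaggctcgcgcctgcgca
Mvk: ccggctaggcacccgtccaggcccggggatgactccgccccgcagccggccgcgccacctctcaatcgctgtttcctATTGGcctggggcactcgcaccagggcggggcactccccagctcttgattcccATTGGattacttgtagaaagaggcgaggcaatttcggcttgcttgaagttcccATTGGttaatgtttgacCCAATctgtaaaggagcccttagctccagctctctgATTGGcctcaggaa
Lss held 1 match and Mvk 5. Of the 19 members with a promoter in the RefSeq table, 16 (84.2%) held a CCAAT box, beside 36.9% of 9626 promoters of genes tested, 45.6% of those of lower and 35.3% of those of higher genes. The sterol regulatory element, on which SREBP factors act, was found as searched in 1 of the 19 and in 0.925% of promoters of genes tested. Further motifs were searched in this and the other lists, and their shares are not reported here. The shares given are thus a selection, describe letters and say nothing of binding.

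Lss, lanosterol synthase, closes the sterol ring (Entrez gene 16987, chr10:76531565-76557139). It was at 6.57, 10.2, 12.3, 14.4 and 9.29 CPM in Tfh replicates 1 to 5 and 30.6, 24.2, 30.7, 42.6 and 36.9 CPM in Th17 replicates 1 to 5, a log2 fold change of -1.63 ± 0.20 (SE; edgeR adjusted p = 1.49e-05). Mvk, mevalonate kinase (Entrez gene 17855, chr5:114444264-114460591), was at 1.74, 4.94, 4.08, 6.27 and 7.805 CPM in Tfh replicates 1 to 5 and 10.7, 9.42, 12.2, 18.3 and 14.2 CPM in Th17 replicates 1 to 5, a log2 fold change of -1.36 ± 0.34 (SE; edgeR adjusted p = 0.00958). For both, Tfh replicate 1 was the lowest of the 10 libraries and no groups overlapped. Fdps, farnesyl diphosphate synthase (Entrez gene 110196, chr3:89093588-89101967), was at 79.3, 73.2, 67.97, 84.3 and 64.02 CPM in Tfh replicates 1 to 5 and 156, 151, 191, 207 and 177 CPM in Th17 replicates 1 to 5, a log2 fold change of -1.26 ± 0.14 (SE; edgeR adjusted p = 9.05e-06). Among the other members called lower were Hmgcs1, Acat2, Mvd, Hsd17b7, Msmo1, Nsdhl, Sqle, Stard4, Insig1, Cyp51 and Fdft1, with log2 fold changes from -1.11 to -0.49. The pathway was lower from its entry (Hmgcs1) through squalene (Fdft1, Sqle) to the late steps (Cyp51, Msmo1, Nsdhl, Hsd17b7). Soat1, which stores cholesterol as esters, was the higher gene, at 115, 144, 149, 148 and 145 CPM in Tfh replicates 1 to 5 and 113, 103, 101, 106 and 94.1 CPM in Th17 replicates 1 to 5, a log2 fold change of 0.44 ± 0.11 (SE; edgeR adjusted p = 0.0109). Its 4 other Tfh libraries lay above replicate 1, and all 5 lay above the Th17 libraries.

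**Figure D4:**
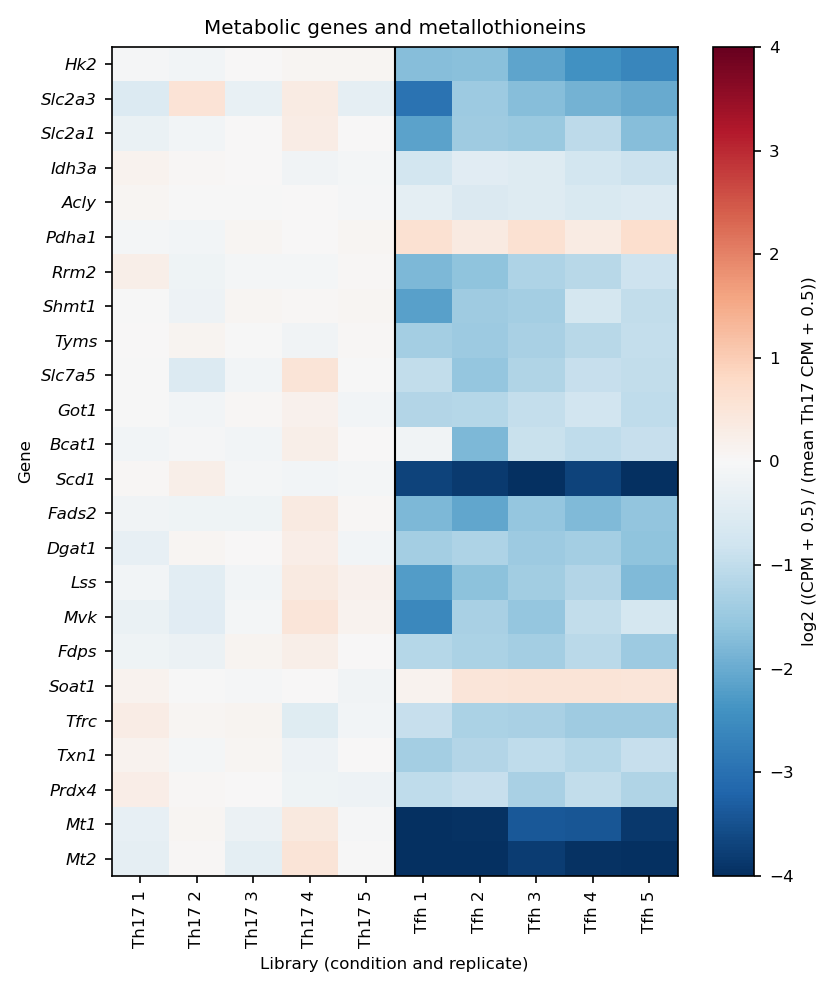
Rows are 24 metabolic and metallothionein genes and columns the 5 Th17 and 5 Tfh libraries; colour is the log2 of (CPM + 0.5) over (mean Th17 CPM + 0.5), with the scale ending at 4 either way, so Scd1, Mt1 and Mt2 reach its lower end. All Tfh columns are blue for the genes called lower, palest for Acly, Idh3a and for Bcat1 in Tfh replicate 1, and red for Pdha1 and Soat1.

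Iron, heme and redox genes had 12 lower and 0 higher members among 36 tested by edgeR (0 also at an unadjusted p under 0.05, by DESeq2 and by limma-voom). That made 33.3% called, beside 16.8% of all genes, with a median of -0.27 and 10 lower without Tfh replicate 1. Tfrc, the transferrin receptor by which dividing cells take up iron (Entrez gene 22042, chr16:32608896-32632794), was at 194, 151, 147, 136 and 137 CPM in Tfh replicates 1 to 5 and 449.6, 388, 393, 261 and 339 CPM in Th17 replicates 1 to 5, a log2 fold change of -1.26 ± 0.19 (SE; edgeR adjusted p = 1.54e-04). Txn1, thioredoxin, was at 267 ± 31.9 against 579 ± 54.3 CPM in Tfh against Th17 cells and Prdx4, a peroxiredoxin, at 57.02 ± 6.12 against 121 ± 16.2 CPM. Among the other members called lower were Srxn1, Gsr, Fth1, Gsto1, Prdx1, Txnrd1, Prdx3 and Sod1, with log2 fold changes from -1.76 to -0.34. Fth1 is the heavy chain of ferritin, and Gsr, Txnrd1 and Srxn1 recycle thiols.

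Ribosome biogenesis genes had 14 lower and 0 higher members among 38 tested by edgeR (0 also at an unadjusted p under 0.05, by DESeq2 and by limma-voom). That made 36.8% called, beside 16.8% of all genes, with a median of -0.41 and 11 lower without Tfh replicate 1. Changes were small in size. Nop56, of the box C/D particles that modify ribosomal RNA (Entrez gene 67134, chr2:130274367-130279313), was at 48.3, 47.6, 64.8, 49.5 and 55.1 CPM in Tfh replicates 1 to 5 and 92.4, 79.4, 92.8, 94.1 and 85.04 CPM in Th17 replicates 1 to 5, a log2 fold change of -0.74 ± 0.12 (SE; edgeR adjusted p = 3.94e-04). Nhp2 was at 83.9 ± 15.7 against 142 ± 25.6 CPM and Noc2l at 51.1 ± 5.87 against 82.2 ± 8.97 CPM in Tfh against Th17 cells. The other 11 members called lower were Mrto4, Lyar, Polr1b, Bysl, Ebna1bp2, Ltv1, Nip7, Nolc1, Gnl3, Nop10 and Wdr43, with log2 fold changes from -0.92 to -0.41.

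Of 29 cell cycle regulators, 11 were lower and 2 higher in Tfh cells (44.8% called, beside 16.8% of all genes). The median was -0.22, and the counts were 10 and 2 without Tfh replicate 1. Btg1, an antiproliferative gene of resting lymphocytes (Entrez gene 12226, chr10:96617001-96622813), was at 520.2, 636, 708, 744 and 620.1 CPM in Tfh replicates 1 to 5 and 249.6, 302, 277, 269.7 and 291 CPM in Th17 replicates 1 to 5, a log2 fold change of 1.22 ± 0.11 (SE; edgeR adjusted p = 8.06e-07). Its relative Btg2 was at 326 ± 38.6 CPM in Tfh and 182 ± 30.96 CPM in Th17 cells. Both were higher in all Tfh libraries than in any Th17 library. Ccnb1, cyclin B1 of mitosis, was at 74.2 ± 16.3 against 170.0 ± 33.9 CPM in Tfh against Th17 cells, and Ccne2, a cyclin of the G1 to S step, at 13.5 ± 7.11 against 36.4 ± 10.7 CPM. Tfh replicate 1 was lowest for Ccne2, whose call was lost in 1 alternative. The other 8 members called lower were Cdk1, E2f7, Ccnb2, Ccna2, E2f8, Ccnd3, Ccne1 and Rbl1, with log2 fold changes from -1.13 to -0.51. Cdkn1a, the inhibitor p21 (Entrez gene 12575, chr17:29090979-29100722), moved with the cyclins and not with Btg1, at 26.3, 28.1, 26.7, 38.1 and 39.5 CPM in Tfh replicates 1 to 5 and 88.97, 80.02, 85.2, 129.8 and 85.8 CPM in Th17 replicates 1 to 5, a log2 fold change of -1.56 ± 0.19 (SE; edgeR adjusted p = 1.37e-05).

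**Figure D5:**
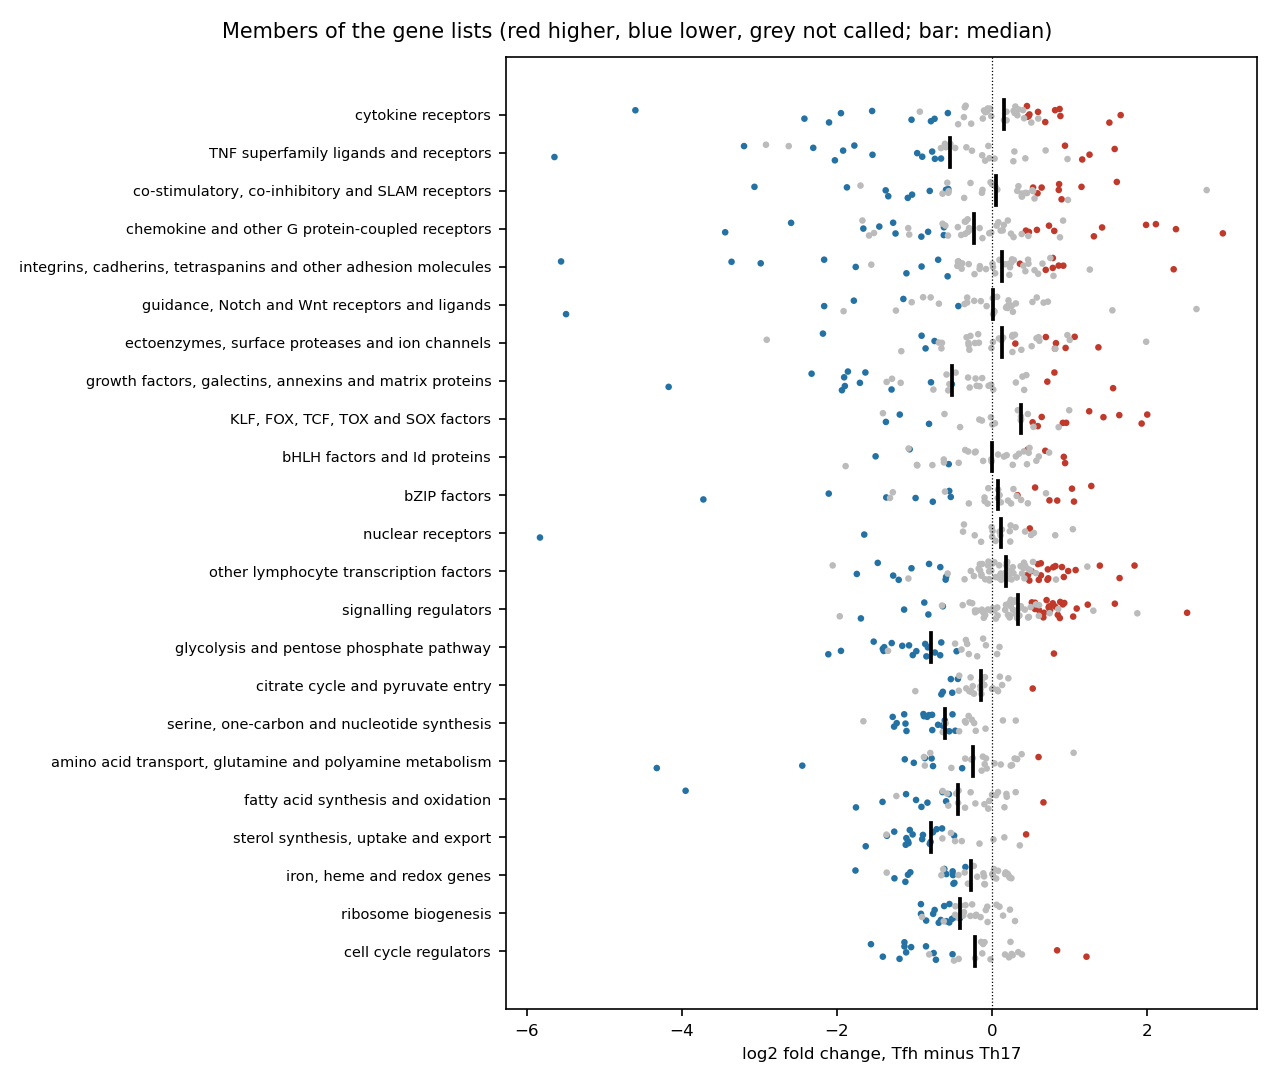
Each point is a tested member of 1 of 23 gene lists, placed by its log2 fold change of Tfh over Th17 cells (x axis); red points were called higher, blue points lower and grey points neither, and the black bar is the list's median. The bars of the sterol, glycolysis and nucleotide lists lie between -0.79 and -0.61, and those of the KLF and signalling lists at 0.37 and 0.33.

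Read against all genes tested, 337 of the 903 list members tested were called, beside 2113 of 12591. The lists were chosen with earlier results of these data known, so this share is a description. RefSeq gene spans overlapped another gene for 55 of the 120 genes the rule chose. For 19 of them that gene had at least 10% of the chosen gene's counts. These include Cxcr5, Tcf7, Ccl3, Cd72, Igfbp7, Nop56, Acvr2a, Gpr183, Ddit3, Il12rb2, Irf5 and Itgae. Without a stated strand setting, such reads cannot be told apart.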

How the data were processed

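Messenger RNA was sequenced from 100 ng of RNA per sample with the SENSE mRNA-Seq kit V2, per the labels' protocols. The authors deposited raw read counts per Entrez gene for 27179 genes, aligned with STAR 2.7.2b to mm10 and counted with featureCounts 1.6.4, per the submitters' processing notes. Which annotation and strand setting were used, and how multi-mapping reads were treated, was not given in the sources used here. RefSeq (GRCm38.p6, the assembly of mm10) named 25275 genes and GENCODE 18, which with the former held 98.2% of counts. Coordinates, promoters and gene spans are from RefSeq.

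Counts of all 15 libraries were fitted once in edgeR 4.0.16 (R 4.3.3) after its default filter on 3 groups, which removed 5472 genes that had a count. TMM factors, robust quasi-likelihood tests of Tfh minus Th17 and Benjamini-Hochberg adjustment over all 12591 genes were used, and a gene was called at an adjusted p under 0.05. Errors of log2 fold changes come from the F statistic. In simulated counts of this comparison over 12591 genes, 53 of 100 genes changed 2-fold and 90 of 100 changed 4-fold were recovered, with 4 false calls. These counts were drawn independently, without the GC trends or the outlying library described above. They cannot give the rate of false calls in the real libraries. No pair of libraries agreed within counting noise: the lowest chi-square per gene was 9.64. The highest was 65.8, between Th17 replicates 2 and 4, beside 44.5 for Tfh replicates 2 and 4. A count of 0 allows up to 3 counts, a limit that covers counting error only.

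The 23 lists (1037 genes, 2 absent from the table), the markers and the genes named were chosen with earlier results of these data known. The rule named Cxcr5, Il17a, Tcf7 and Il2, up to 3 genes per direction and list, and the 12 highest and 12 lowest of all genes. Except for the first 4, they had to be called, not overlap between groups and average 10 CPM or more in the higher group. Names made of an identifier, of Gm and a number or ending in Rik were left out of the extremes. Other called members are listed by name only, with their range, and some genes are not reported here. Lists were counted, not tested. Motifs were searched in the 250 bases before the start, and the metal response element was added after the values were seen. Alternatives were DESeq2 1.42.0, limma-voom (limma 3.58.1), other scaling factors and filters, the 10 libraries alone, GC correction, the replicate number as a block, and leaving out each library in turn.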

Additional observations from a re-analysis of the deposited data

Results flagged for a closer look

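Among the 120 genes the rule chose, 18 of 240 groups of 5 libraries held 1 library far from the other 4 (its gap to the nearest, over the group's range, was above Dixon's 95% critical value). Chance flags about 1 in 20 groups, and the causes were not tested.

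Some of them concerned Tfh replicate 1, the shallowest library: Gpr183 at 31.3 CPM against 56.9 to 63.7 CPM in the other Tfh libraries, Soat1 at 115 against 144 to 149 CPM, Tfrc at 194 against 136 to 151 CPM, and Ccne2 at 1.16 against 13.98 to 18.8 CPM. In Tfh replicate 2, Cdh17 was at 1.13 against 0 to 0.0995 CPM and Mgarp at 6.50 against 1.55 to 2.99 CPM. Tnfsf10 was at 17.1 CPM in Tfh replicate 3 against 11.99 to 13.1 CPM. In Tfh replicate 4, Lag3 was at 658 against 400 to 459 CPM and Sema7a at 24.4 against 14.9 to 17.4 CPM. In Tfh replicate 5, Gpr83 was at 7.61 against 17.0 to 18.8 CPM, Rgs16 at 78.8 against 61.5 to 65.5 CPM and Fmnl2 at 73.3 against 40.0 to 49.2 CPM.

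Among Th17 libraries, replicate 1 had Il2 at 59.8 against 34.8 to 41.4 CPM and Nfil3 at 32.4 against 44.9 to 48.1 CPM. Replicate 2 had Cdh17 at 22.0 against 6.45 to 8.86 CPM and Klf2 at 32.0 against 22.8 to 24.1 CPM. Cdkn1a was at 129.8 CPM in replicate 4 against 80.0 to 89.0 CPM, and Itgae at 10.9 CPM in replicate 5 against 7.35 to 8.31 CPM. None of these libraries overlapped the other condition, which the rule required of all these genes but Il2.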

How the results depend on the processing

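No call turned its direction in any of 20 alternatives, and 113 of the 120 genes the rule chose were called in all of them. Calls were lost for Slc25a1 in 11 alternatives, Npas2 in 10, Nr2c2 in 9, Fos in 3, and Ccne2, Irf5 and Nhp2 in 1 each. Correction for GC content raised the calls to 3385, with 1710 higher, and with the replicate block added to 3947, with 1968 higher and 1979 lower. DESeq2 called 2704 genes and limma-voom 2194. Leaving out 1 library at a time gave 1627 to 2068 calls, 613 to 869 higher and 1014 to 1230 lower. Without Tfh replicate 1, 1833 of the 2113 calls remained in the same direction.

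Replicate numbers are shared by the groups, but same-numbered libraries deviated together with a correlation over 0.1 in only 2 of 5 pairs (0.0055 to 0.461), and 3 of 5 Tfh libraries correlated best with their own number. They are thus not shown to be paired. The replicate block alone gave 2941 calls, 1240 higher and 1701 lower. The sign of the median changed for the guidance list in 10 alternatives, for the helix-loop-helix list in 14, for the leucine zipper list in 2 and for cytokine receptors in 1. Depth limits the genes near 0 counts in 1 group, such as Il2 and Cdh17, whose fold changes are imprecise.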
